A study of Homo sapiens with 3 samples.

Results

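The 10 genes described here, AXIN2, LGR5, SP5, TBX3, ZNRF3, RNF43, TCF7, DKK1, NKD1 and NOTUM, are widely used as transcriptional readouts of Wnt and beta-catenin signalling. They were taken by gene symbol from a table of expected read counts per gene, in which all 10 were found among 62680 rows. HepG2, a human hepatocellular carcinoma line labelled wild type, was exposed for 48 h to 20 µM A740003, to 20 µM A438079 or to PBS as the control, and RNA was sequenced from 1 library per treatment. The labels call both compounds specific antagonists of P2X7, a channel opened by extracellular ATP. They do not say what the compounds were dissolved in, and an effect of a solvent present in both antagonist libraries cannot be told apart from one of the compounds.

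Wnt ligands bind a Frizzled receptor together with LRP5 or LRP6 and stop the destruction complex of APC, AXIN and GSK3 from degrading beta-catenin, which then enters the nucleus and activates genes through TCF and LEF factors. Many of these target genes encode inhibitors of the pathway itself, so they act as negative feedback. In liver the pathway sets the gene programme of hepatocytes around the central vein. HepG2 cells are known to carry an in-frame deletion in CTNNB1, the beta-catenin gene, that removes the sites by which the protein is marked for destruction. This mutant background is shared by all 3 libraries.

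With 1 library per treatment there was no test of a treatment and no p-value. Counts were scaled to CPM (counts scaled to a common library size) with TMM factors, and each ratio is given with an exact 95% interval that covers counting error only. A gene is called lower or higher where the ratio is at least 1.5-fold with an interval that excludes 1. Expected counts summed to between 19375523 (PBS) and 19735589 (A740003) per library. The 12270 genes that averaged at least 1 CPM were measured, all 10 target genes among them. The liver markers ALB, AFP and the other 8 on that list were detected in every library, whereas all 4 endothelial markers and PTPRC, the pan-leukocyte marker, had 0 counts. Of the 6 macrophage and leukocyte markers 3 had 0 counts throughout, while CD68 had 632 to 758 counts and LYZ stood at 784 to 894 FPKM. Summed over each list, macrophage and leukocyte markers stood at 814 to 925 FPKM, bile duct markers (KRT19, EPCAM and SPP1 among them) at 825 to 998 FPKM and fibroblast markers, mainly ACTA2, at 15.16 to 16.95 FPKM. The part of these markers in the results was not tested. The values are bulk values, in which fewer cells that express a gene and less RNA per cell cannot be told apart.

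Promoter sequences from RefSeq (GRCh38.p14) were at hand for 4 of the 10 genes, SP5, DKK1, TCF7 and RNF43. The 7-letter core motifs of TCF and LEF factors, CTTTGAT and CTTTGAA, were searched on both strands in the 250 bases before each annotated start. Of 35116 such windows over all genes, 5.94% held at least 1 match and 7 windows held 3 or more. The SP5 window was 1 of those 7, with 3 matches whose leftmost bases lie 148, 109 and 84 bases before the start, and the DKK1 window held 1 match, 95 bases before the start. No match was found in the 2 windows of TCF7 or the 2 windows of RNF43. The windows of SP5 (chr2:170715087-170715336, plus strand) and DKK1 (chr10:52314031-52314280, plus strand) are shown because both genes hold matches and both were lower with A740003. The fall of DKK1 in scaled counts was too small to be called. The first window of TCF7 (chr5:134115363-134115612, plus strand) is shown as a gene that was called lower with A740003 and holds none. Capitals mark the matches.
SP5: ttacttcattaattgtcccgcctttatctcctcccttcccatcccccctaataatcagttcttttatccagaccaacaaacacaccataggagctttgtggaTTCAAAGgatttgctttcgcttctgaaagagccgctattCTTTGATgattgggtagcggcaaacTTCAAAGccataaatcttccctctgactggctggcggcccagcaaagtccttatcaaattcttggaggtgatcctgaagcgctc
DKK1: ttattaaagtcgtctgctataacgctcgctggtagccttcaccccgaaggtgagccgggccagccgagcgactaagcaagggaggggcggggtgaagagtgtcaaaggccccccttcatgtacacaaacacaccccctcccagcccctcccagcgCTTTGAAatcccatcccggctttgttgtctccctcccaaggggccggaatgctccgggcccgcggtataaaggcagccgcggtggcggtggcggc
TCF7: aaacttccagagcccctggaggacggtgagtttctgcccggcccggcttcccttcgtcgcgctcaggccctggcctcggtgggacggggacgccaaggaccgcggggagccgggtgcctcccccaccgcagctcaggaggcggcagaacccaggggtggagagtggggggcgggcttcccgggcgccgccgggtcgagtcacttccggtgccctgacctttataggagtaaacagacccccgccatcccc
A match is a description of the letters and was not tested for binding. A link between matches and ratios was not tested either.

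In the PBS library the levels of the 10 genes per transcript length covered a wide range. DKK1, a secreted inhibitor that blocks the LRP co-receptors, stood at 3054 FPKM (fragments per kilobase, scaled for library size) and ranked 49th of all 62680 rows. It took 83.2% of the counts of the 10 genes together. LGR5, the receptor for R-spondins that marks Wnt-responsive stem cells, followed at 35.3 FPKM. AXIN2 (25.1), SP5 (23.6), NKD1 (19.3), RNF43 (18.4) and NOTUM (17.5) lay close together in FPKM, and TBX3 (7.40), TCF7 (5.17) and ZNRF3 (4.77) were the lowest. In the A740003 library SP5 stood at 10.1 FPKM, below NOTUM (19.3) and RNF43 (19.1), so its place in the order moved from the fourth to the seventh. Replicate spread is not known for any neighbouring pair in this order.

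**Figure D1:**
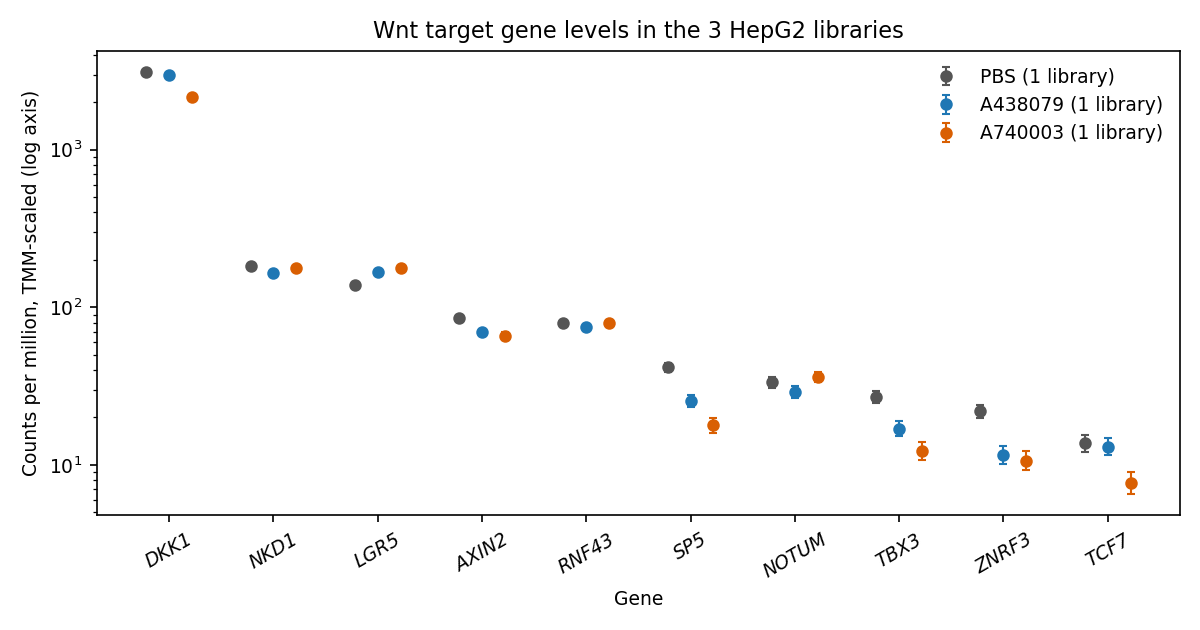
TMM-scaled CPM (log axis) of the 10 Wnt target genes in the PBS, A438079 and A740003 libraries, with exact Poisson 95% intervals as bars (many are smaller than the point). SP5, TBX3 and ZNRF3 are lower in both antagonist libraries than with PBS, DKK1 and TCF7 are lowest with A740003, and LGR5 is higher in both.

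With A740003 the 3 transcription factor genes SP5, TBX3 and TCF7 and the ubiquitin ligase gene ZNRF3 held the lowest ratios, and with A438079 ZNRF3, SP5 and TBX3 did. Of the 10 genes, 4 were called lower and 0 higher in the A740003 library over PBS, where 10.7% of all measured genes were called lower and 3.14% higher. In the A438079 library 3 were called lower and 0 higher, against 9.44% and 1.63% of all measured genes. Among genes that averaged 5 CPM or more, which all 10 do, the shares called lower were 6.95% and 5.48%. The median log2 ratio of the 10 genes was -0.45 with A740003 and -0.17 with A438079, and the medians of all measured genes were 0.00097 and -0.0036. Both comparisons use the same PBS library, so their values are not independent. The 10 genes were chosen with earlier results of these data known. Their counts beside the shares over all genes are therefore a description and not a test.

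SP5 (ENSG00000204335; GENCODE release 29 on GRCh38, chromosome 2, 170715351 to 170718078, plus strand) encodes a zinc-finger repressor that binds at Wnt target genes. It had 809 counts (41.7 CPM) with PBS, 496 (25.6 CPM) with A438079 and 355 (17.8 CPM) with A740003. PBS was the highest and A740003 the lowest, and the 3 Poisson intervals did not overlap. The ratio over PBS was 0.428 (0.377 to 0.485) with A740003 and 0.614 (0.548 to 0.688) with A438079.

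TBX3 (ENSG00000135111; chromosome 12, 114670254 to 114684164, minus strand), a T-box factor gene active in hepatoblasts and in liver tumours with active beta-catenin, showed the same order. Its counts were 522 (26.9 CPM) with PBS, 330 (17.02 CPM) with A438079 and 245 (12.3 CPM) with A740003, again with Poisson intervals that did not overlap. The ratio was 0.458 (0.392 to 0.534) with A740003 and 0.633 (0.550 to 0.728) with A438079.

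ZNRF3 (ENSG00000183579; chromosome 22, 28883592 to 29057487, plus strand) and RNF43 (ENSG00000108375; chromosome 17, 58352500 to 58417595, minus strand) encode related membrane ubiquitin ligases that remove Frizzled receptors from the cell surface. ZNRF3 had 426 counts (21.9 CPM) with PBS, 224 (11.6 CPM) with A438079 and 212 (10.6 CPM) with A740003. The antagonist libraries overlapped each other in their intervals, and both lay below PBS, with ratios of 0.485 (0.410 to 0.574) for A740003 and 0.527 (0.446 to 0.621) for A438079. RNF43 had 1539, 1445 and 1575 counts in the PBS, A438079 and A740003 libraries, at 79.2, 74.5 and 79.1 CPM. Neither ratio could be told from 1 by its interval, at 0.998 (0.930 to 1.07) with A740003 and 0.941 (0.875 to 1.01) with A438079. The intervals of the ZNRF3 and RNF43 ratios did not overlap in either comparison. The direction of RNF43 was not stable: its log2 ratio over PBS was above 0 for both compounds on the FPKM scale (0.051 and 0.20 with a pseudocount of 0.1), and for A740003 also with total counts (0.0068), DESeq2 size factors (0.0046) and upper quartile scaling (0.055).

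TCF7 (ENSG00000081059; chromosome 5, 134114711 to 134151865, plus strand) encodes TCF1, a factor through which beta-catenin acts. It had 267 counts (13.7 CPM) with PBS, 253 (13.1 CPM) with A438079 and 153 (7.68 CPM) with A740003. The A740003 library lay below the others, which overlapped. The ratio was 0.559 (0.455 to 0.684) with A740003 and 0.949 (0.796 to 1.13) with A438079. The size of this difference depended on the scale, because the transcript length implied by the authors' counts and FPKM values together was 2003 nt with A740003 against 2665 nt with PBS and 2628 nt with A438079. On the FPKM scale TCF7 stood at 3.87 against 5.17 with PBS, 0.749 times, and was not called.

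The secreted inhibitors DKK1 and NOTUM took different courses. DKK1 (ENSG00000107984; chromosome 10, 52314296 to 52318042, plus strand) had 60075 counts (3093 CPM) with PBS, 57837 (2984 CPM) with A438079 and 42788 (2149 CPM) with A740003. The intervals of the 3 libraries did not overlap, and the ratio was 0.695 (0.686 to 0.703) with A740003, just short of the size called, and 0.965 (0.954 to 0.976) with A438079. DKK1 alone took 0.310% of all counts with PBS (0.308% to 0.313%, exact binomial), 0.295% with A438079 (0.293% to 0.297%) and 0.217% with A740003 (0.215% to 0.219%). On the FPKM scale it stood at 0.645 times PBS with A740003, past the 1.5-fold size. NOTUM (ENSG00000185269; chromosome 17, 81952507 to 81961840, minus strand), whose product removes a lipid that Wnt ligands need, had 649, 563 and 717 counts with PBS, A438079 and A740003. Its ratio was 1.08 (0.968 to 1.20) with A740003 and 0.869 (0.775 to 0.974) with A438079.

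AXIN2 (ENSG00000168646; chromosome 17, 65528563 to 65561647, minus strand), a scaffold of the destruction complex and the most used feedback readout of the pathway, was lower in both antagonist libraries by less than the size called. It had 1654 counts (85.2 CPM) with PBS, 1345 (69.4 CPM) with A438079 and 1312 (65.9 CPM) with A740003. The antagonist libraries overlapped and both lay below PBS, with ratios of 0.774 (0.719 to 0.832) for A740003 and 0.815 (0.758 to 0.876) for A438079. NKD1 (ENSG00000140807; chromosome 16, 50548330 to 50649249, plus strand), which encodes an inhibitor that binds Dishevelled, had 3543, 3220 and 3522 counts with PBS, A438079 and A740003. Its ratio was 0.970 (0.925 to 1.02) with A740003 and 0.911 (0.868 to 0.955) with A438079. The transcript length implied for NKD1 was 7813 nt with A740003, 10175 nt with A438079 and 9484 nt with PBS. Its log2 ratio for A740003 was therefore 0.24 on the FPKM scale with a pseudocount of 0.1, against -0.04 in counts, and it was 0.013 with upper quartile scaling.

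LGR5 (ENSG00000139292; chromosome 12, 71439770 to 71586310, plus strand) was the only one of the 10 whose interval lay above 1 in both antagonist libraries. It had 2697 counts (139 CPM) with PBS, 3224 (166 CPM) with A438079 and 3523 (177 CPM) with A740003. PBS was the lowest, its interval overlapped neither of the others, and the ratios were 1.27 (1.21 to 1.34) with A740003 and 1.20 (1.14 to 1.26) with A438079, below the size called.

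**Figure D2:**
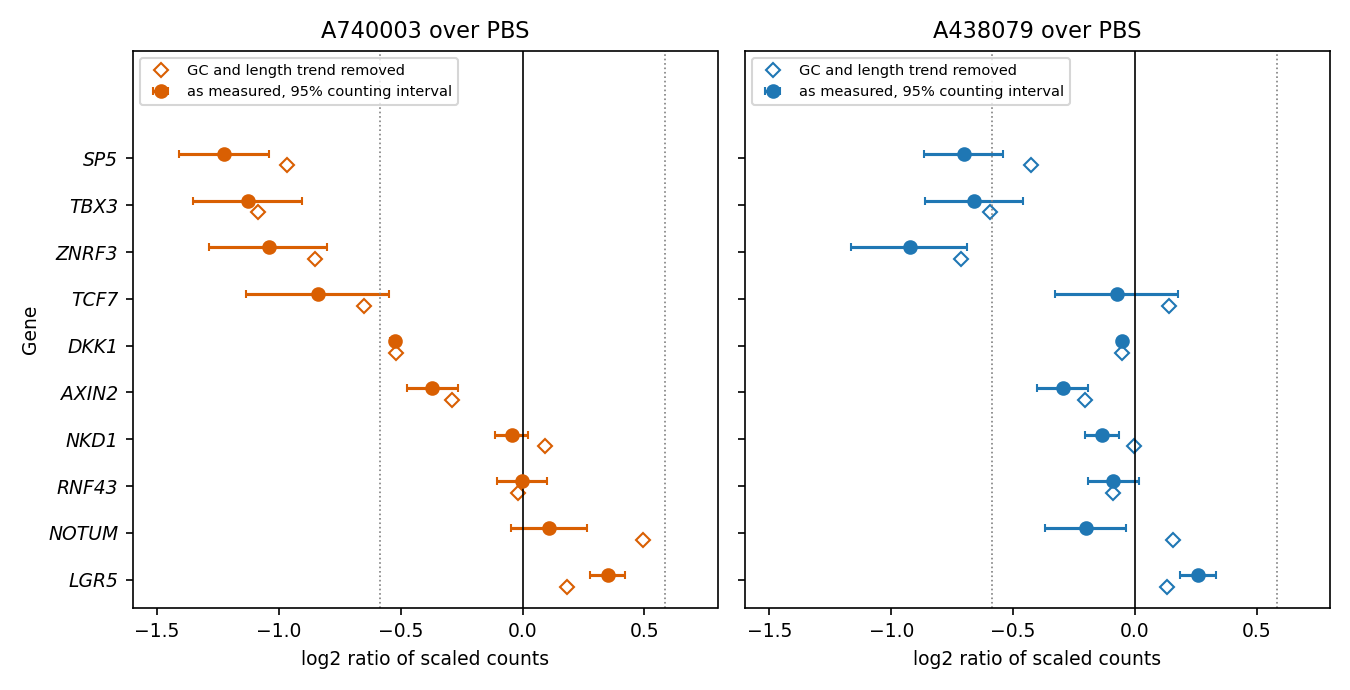
Log2 ratio over PBS (x axis) of each gene (y axis) with A740003 (left) and A438079 (right). Filled points are ratios of scaled counts with 95% counting intervals, open diamonds the same ratios without the GC and length trend, and dotted lines mark 1.5-fold. SP5, TBX3 and ZNRF3 lie beyond the lower line in both panels, and SP5 moves inside it with A438079 once the trend is removed.

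Ratios over PBS moved with the GC content of transcripts in both antagonist libraries. Measured genes were split into 4 equal groups by GC content. The median log2 ratio of the group with the highest GC content, 55.4% to 75.8%, was -0.26 for A740003 and -0.27 for A438079, and 29.5% and 26.6% of its genes were called lower. For the group with the lowest GC content, 27.8% to 41.6%, the medians were 0.11 and 0.12. SP5 (66.2% GC) and NOTUM (66.5%) lie in the highest group, LGR5 (43.8%) and DKK1 (43.5%) in the second from below, and the other 6 in the next. SP5 and NOTUM, nearly equal in GC content, stood at 0.428 and 1.08 times PBS with A740003.

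With the median of the genes nearest in GC content and length subtracted, the same 4 genes were called lower with A740003, against 6.73% of all genes with both values (3.49% were called higher). Their log2 ratios became -0.97 for SP5, -1.09 for TBX3, -0.85 for ZNRF3 and -0.65 for TCF7. With A438079, TBX3 (-0.60) and ZNRF3 (-0.71) were called lower, against 4.9% of all genes (1.96% were called higher), and SP5 at -0.43 was not. DKK1 hardly moved, at -0.52 with A740003. LGR5 came to 0.18 with A740003 and 0.13 with A438079. NOTUM stood higher with A740003, at 0.49, and turned from -0.20 to 0.16 with A438079. NKD1 with A740003 turned from -0.04 to 0.09, and TCF7 with A438079 from -0.07 to 0.14. The median of the 10 genes was -0.40 with A740003 and -0.07 with A438079 after this step.

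**Figure D3:**
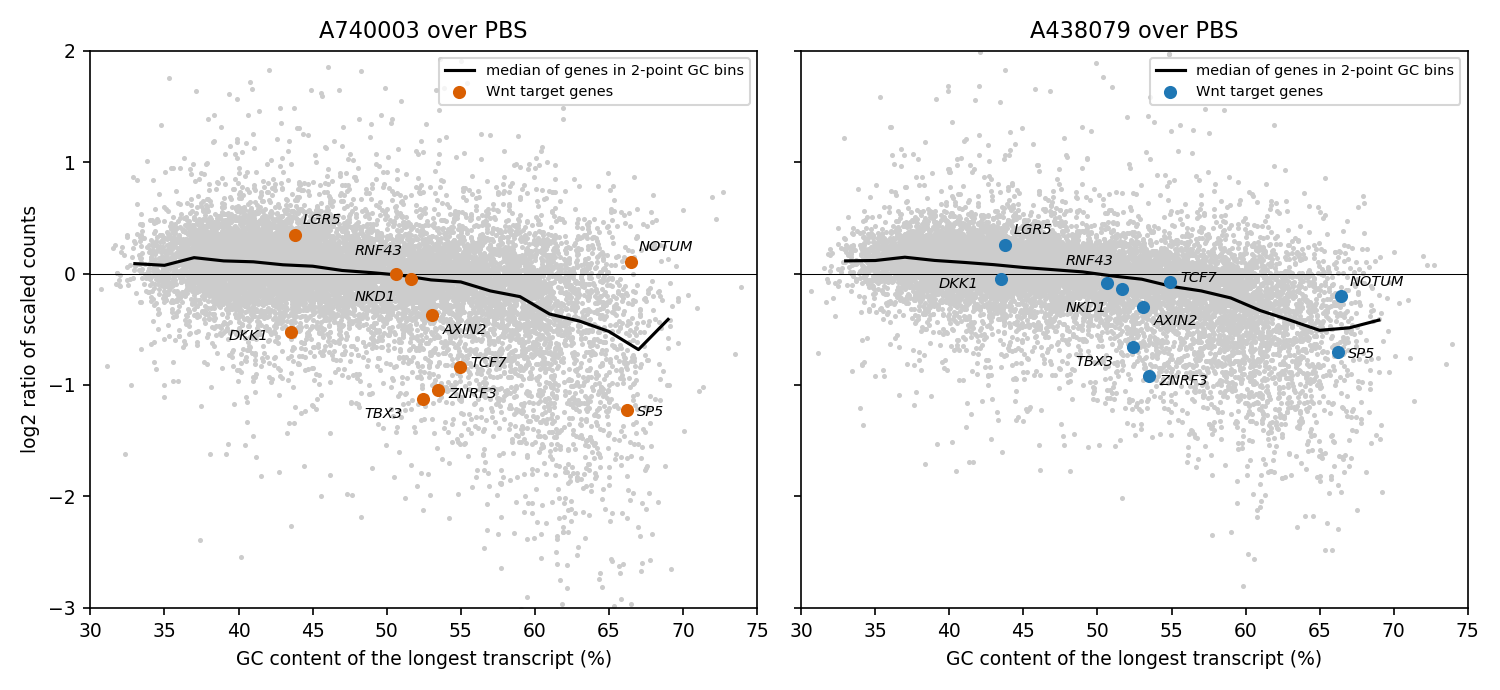
GC content of the longest transcript (x axis, %) against the log2 ratio over PBS (y axis) for all measured genes (grey) and the 10 Wnt target genes (coloured), with the median in 2-point GC bins as a line (genes beyond the axis limits are not drawn). With A740003, SP5, TBX3, ZNRF3, TCF7, DKK1 and AXIN2 lie below the line and NOTUM and LGR5 above it.

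A direct comparison of A740003 with A438079, matched at 20 µM and 48 h, covered the 10 genes in 1 pair of libraries, with intervals not adjusted for their number. TCF7 was the gene called lower with A740003 than with A438079, at 0.589 times (0.478 to 0.722), where 2.81% of all measured genes were called lower and 2.44% higher. On the FPKM scale it stood at 0.788 times and was not called. SP5 stood at 0.697 times (0.606 to 0.800), TBX3 at 0.723 times (0.610 to 0.855) and DKK1 at 0.720 times (0.711 to 0.729), all with intervals below 1. TBX3 came to 0.920 times on the FPKM scale, where its implied transcript length was 3174 nt with A740003 and 3960 nt with A438079. NOTUM stood at 1.24 times (1.11 to 1.39), and NKD1 (1.06; 1.01 to 1.12) and LGR5 (1.06; 1.01 to 1.12) had intervals just above 1. On the FPKM scale NKD1 stood at 1.42 times, so its size depended on the scale. With the trend removed the interval of LGR5, 0.999 to 1.10, included 1. ZNRF3 at 0.921 (0.760 to 1.12), AXIN2 at 0.9496 (0.879 to 1.03) and RNF43 at 1.06 (0.987 to 1.14; 0.900 on the FPKM scale) had intervals that include 1, which does not show that the compounds act alike on them. The GC trend was smaller here: the median log2 ratio was -0.016 in the group with the highest GC content and -0.0044 in that with the lowest, although 5.64% against 1.48% of their genes were called lower. The 4 genes with intervals below 1 stood at log2 ratios of -0.76 (TCF7), -0.55 (SP5), -0.47 (TBX3) and -0.43 (DKK1) with the trend removed.

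**Figure D4:**
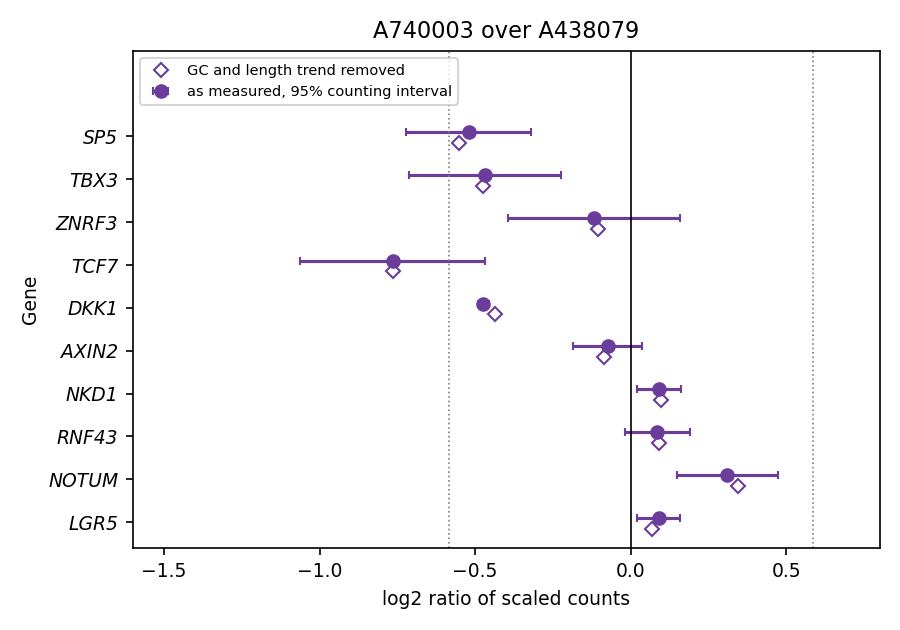
Log2 ratio of A740003 over A438079 (x axis) for each gene (y axis), with 95% counting intervals (filled), the value with the GC and length trend removed (open) and dotted lines at 1.5-fold. TCF7, SP5, DKK1 and TBX3 have intervals below 0, and filled and open points nearly coincide for all 10 genes.

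The rest of the pathway was described with 7 further lists, from ligands to liver targets. Their counts stand beside the 10.7% (A740003) and 9.44% (A438079) of all measured genes called lower. Once the trend was taken out, those shares were 6.73% and 4.9%. Of the 21 genes for Wnt ligands and their secretion, 15 had 0 counts in all 3 libraries, which allows up to 0.151 to 0.155 CPM per library, and 2 were measured. These 2, named after their values were seen, were WNT3, a ligand gene with 100, 57 and 69 counts with PBS, A438079 and A740003, and PORCN, the gene of the enzyme that acylates Wnt ligands, with 34, 17 and 22. Both were called lower with A438079 and neither with A740003, where the ratios were 0.673 (0.488 to 0.924) for WNT3 and 0.631 (0.352 to 1.11) for PORCN. For A740003 over A438079 they were 1.18 (0.818 to 1.70) and 1.26 (0.639 to 2.53), with intervals that include 1.

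Of 8 measured receptor genes, 3 were called lower with A740003 and 2 with A438079, and none higher, and with the trend removed 4 and 1 were called lower. FZD5, a Frizzled receptor gene, had 520, 236 and 183 counts with PBS, A438079 and A740003, which gives ratios of 0.343 (0.288 to 0.407) for A740003 and 0.455 (0.388 to 0.531) for A438079. The co-receptor genes LRP5 and LRP6 differed from each other. For A740003 and A438079 the ratios of LRP5 were 0.279 and 0.459, and those of LRP6 were 1.36 and 1.30. Their GC contents are 62.8% and 40.2%, and with the trend removed their log2 ratios were -0.90 and -0.46 for LRP5, the second no longer called, and 0.27 and 0.21 for LRP6. LGR4, the relative of LGR5 that also binds R-spondins, stood at 0.708 times (0.658 to 0.761) and 0.773 times (0.719 to 0.830), against ratios above 1 for LGR5, and with the trend removed it was called lower with A740003 (log2 ratio -0.68). The third gene called lower with A740003 was FZD1, named after its value was seen, with 39, 51 and 21 counts.

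Among the other antagonists, 3 of 15 genes were measured and none was called in either comparison over PBS, too few genes to set against the shares over all genes. DKK4, a relative of DKK1, had 156, 151 and 172 counts with PBS, A438079 and A740003. Of 16 measured Dishevelled and destruction complex genes, 2 were called lower with A740003 and 1 with A438079, near the shares over all measured genes (1 and 0 with the trend removed). AXIN1, the constitutive relative of AXIN2, was called in both, with 219, 87 and 60 counts and ratios of 0.267 (0.197 to 0.357) and 0.398 (0.307 to 0.512) with A740003 and A438079. With the trend removed its log2 ratios were -0.62 and -0.42, and the second was no longer called. DVL1 was called with A740003 at 0.571 times, and stood at a log2 ratio of -0.08 with the trend removed. The scaffold gene APC stood at 1.27 and 1.24 times PBS, the kinase gene GSK3B at 1.23 and 1.12 times, and BTRC, which directs beta-catenin to degradation, at 1.42 and 1.31 times with A740003 and A438079. Removing the trend made these differences smaller. For APC the log2 ratio went from 0.34 to 0.15 with A740003 and from 0.31 to 0.14 with A438079. In the same order, GSK3B went from 0.30 to 0.096 and from 0.17 to 0.011. BTRC went from 0.51 to 0.39 and from 0.39 to 0.30. The ratios of GSK3B depended on the scale, with 18.71 FPKM with PBS, 18.6 with A438079 and 28.97 with A740003.

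CTNNB1 itself had 8829, 10504 and 11272 counts with PBS, A438079 and A740003, so it was higher in both antagonist libraries while SP5, TBX3 and ZNRF3 were lower. It stood at 1.25 times (1.21 to 1.28) and 1.19 times (1.16 to 1.23), and its log2 ratios without the GC and length trend were 0.17 and 0.11. Of the 16 measured genes for beta-catenin, TCF and LEF factors and cofactors, 6 were called lower with A740003 and 4 with A438079, and none higher. With the trend removed 4 and 1 were called lower, the 1 with A438079 being BCL9L. The acetyltransferase gene EP300 stood at 0.526 and 0.604 times PBS and the corepressor gene TLE1 at 0.486 and 0.610 times. With the trend removed their log2 ratios with A740003 were -0.75 and -0.80, and those with A438079, -0.57 and -0.43, were no longer called. BCL9L, CREBBP and TLE3, named after their values were seen, had 65, 141 and 87 counts with PBS, 18, 79 and 62 with A438079, and 2, 38 and 49 with A740003. With the trend removed CREBBP was not called with A438079 (-0.29), nor TLE3 with A740003 (-0.23). On the FPKM scale CREBBP stood at 0.69 with PBS, 0.91 with A438079 and 0.2 with A740003. Its direction with A438079 therefore depended on the scale. The ratio of BCL9L, a beta-catenin adaptor gene, was 0.0300 (0.00356 to 0.113) for A740003, where it rests on 2 counts. Its size depended on the scale, with 0.46 FPKM with PBS, 0.16 with A438079 and 0.11 with A740003. SMARCA4, a chromatin remodeller gene, stood at 0.632 times with A740003, but at a log2 ratio of 0.44 with the trend removed. LEF1 was low, with 25, 19 and 20 counts, and a difference was not detectable at this depth.

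None of the 13 measured genes among other Wnt targets was called in either comparison over PBS, a list too short to set 0 calls apart from the 10.7% and 9.44% over all genes. The median log2 ratio of these 13 genes was -0.13 with A740003 and 0.016 with A438079, and 7 and 6 of them lay below 1. With A740003, TCF7L2, a relative of TCF7, had a ratio of 0.747 (0.598 to 0.931) and SOX9, a progenitor factor gene, one of 0.760 (0.698 to 0.827). With A438079 these 2 stood at 0.903 (0.731 to 1.11) and 0.828 (0.762 to 0.900). On the FPKM scale TCF7L2 stood at 3.62 with PBS, 2.97 with A438079 and 3.28 with A740003. Which antagonist library was lower for TCF7L2 therefore depended on the scale. None of the 7 measured pericentral liver genes was called either, and that list is shorter still. Their median log2 ratio was -0.11 with A740003 and -0.10 with A438079, and 6 and 5 of them lay below 1. The ratio of SLC1A2, a glutamate transporter gene, was 0.771 (0.671 to 0.885) for A740003 and 1.01 for A438079. That of OAT, an ornithine-handling enzyme gene, was 1.16 and 1.02. TCF7L2, SOX9, SLC1A2 and OAT were named for the size of their log2 ratios with A740003 and do not stand for their lists.

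**Figure D5:**
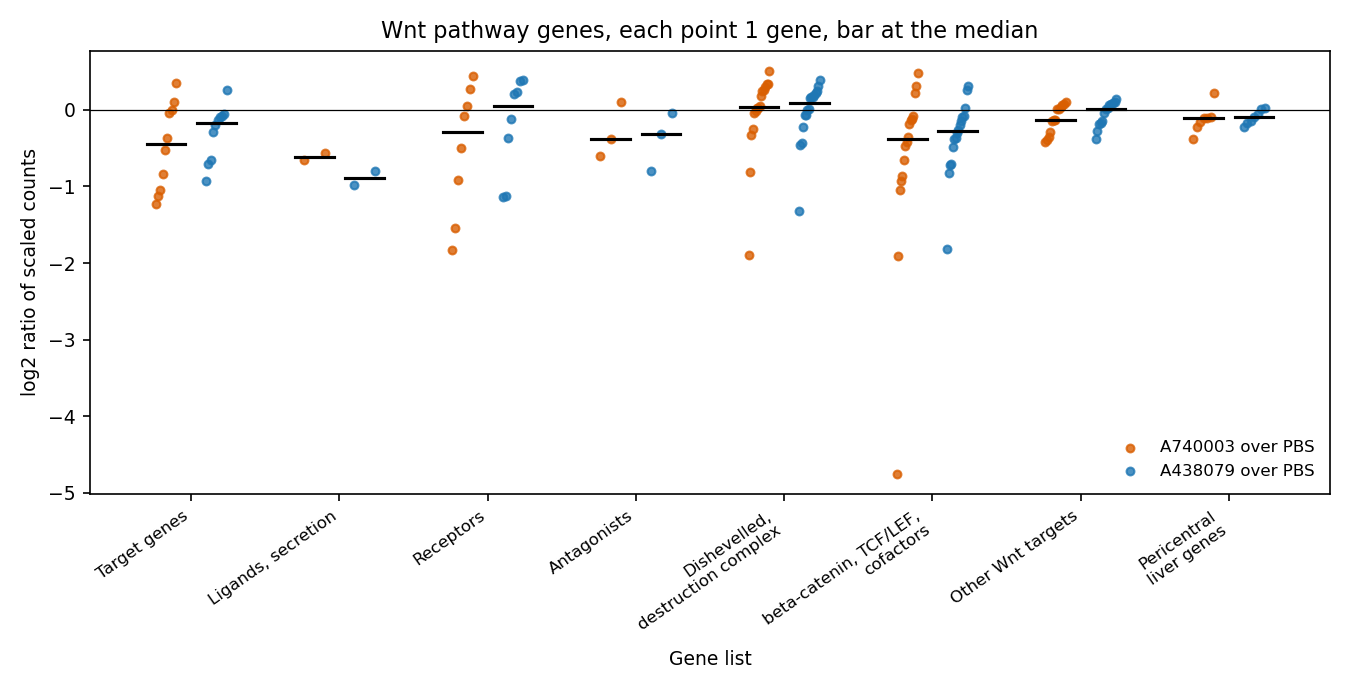
Log2 ratio over PBS (y axis) of the 10 target genes and of the measured genes of 7 Wnt pathway lists (x axis) with A740003 and A438079, each point 1 gene and each bar a median. The medians of the target genes are -0.45 and -0.17, and no gene among other Wnt targets or pericentral liver genes passes the 1.5-fold size.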

How the data were processed

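Libraries (1 each for A740003, A438079 and PBS) were made with a SMARTer mRNA kit, per the labels' protocols. The authors deposited expected counts per gene, which need not be whole, and FPKM values scaled for length and library size. The submitters' processing notes name GRCm38, a mouse build, although the rows are human genes. Aligner, counter, annotation and strand use: not given in the sources used here. Rows without an Ensembl identifier (116, at most 0.0853% of counts) stayed in the totals.

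Expected counts were rounded and scaled with TMM factors from edgeR 4.0.16 (0.989 to 1.01). Ratios have exact conditional binomial (Clopper-Pearson) 95% intervals, and log2 ratios use a pseudocount of 0.5 counts. The limit for a count of 0 is 3 counts. Expected counts of AXIN2, TBX3, RNF43, TCF7 and DKK1 were fractional in at least 1 library, so some reads may be shared with overlapping or related genes. GC content and length are those of the longest GENCODE release 29 transcript (11906 of 12270 genes), and the trend was removed by subtracting a local median. Implied transcript length is the expected count divided by FPKM and the library total. The call rule and the removal of the trend were tested on simulated counts that held counting error alone, without spread between cultures. That test cannot show whether a call reflects the treatment.

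The 10 genes and the lists were chosen with earlier results of these data known. Named besides the 10, whatever their values, were CTNNB1, APC, AXIN1, GSK3B and LEF1. A rule also took up to 3 genes per list and comparison over PBS, with at least 5 CPM and the largest log2 ratios in size. Only some of these are described, picked with their values known. DVL2, TLE5, SOX4, RHBG and CYP27A1 are among those left out. RYK and PECAM1 are not analysed here. As alternatives, scaling (total counts, upper quartile, DESeq2 1.42.0), filter, fold size and interval level were varied, counts were left unrounded, and FPKM was used with pseudocounts of 0.1 and 1. Calls on the FPKM scale used the 1.5-fold size alone, without an interval.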

Additional observations from a re-analysis of the deposited data

How the results depend on the processing

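No paired analysis was possible because each treatment has 1 library, and no replicate could be left out for the same reason. The count of genes called lower with A740003 over PBS stayed within 3 to 4 over all 11 alternatives, 3 of them with a fold of at least 2. With a fold of at least 2, 0 genes were called lower with A438079 over PBS and 0 with A740003 over A438079. On the FPKM scale TCF7 was not called and DKK1 was called lower with A740003 over PBS (log2 ratio -0.63), and 0 genes were called lower with A740003 over A438079, for both pseudocounts, and the median log2 ratio of the 10 genes with A740003 over PBS was -0.39 with a pseudocount of 0.1 and -0.34 with 1. No gene was called higher under any alternative, and no called ratio changed direction. Total counts, DESeq2 size factors, upper quartile scaling, both filters, a 99% interval and counts not rounded changed no call of the 10 genes. What these libraries cannot show is the spread between cultures, since the intervals hold counting error alone.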
